A study of Mus musculus with 3 samples.

Results

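The cells described here were 1374 macrophages that carried the transcripts of Lyve1, Fcna and Cd209f, found among 12414 macrophage-gated cells of ectopic tissue masses in mice. They were chosen by those transcripts themselves. Of the cells with at least 500 UMIs, 300 genes and at most 15% mitochondrial UMIs, a cell was macrophage-gated when it had at least 1 UMI of Csf1r or Adgre1, no UMI of Cd3e or Cd79a, and under 1% of its UMIs from Col1a1, Col1a2 and Col3a1. A UMI is a molecular tag that stands for 1 captured transcript molecule. A gated cell was a member when at least 2 of Lyve1, Fcna and Cd209f each had a UMI, and the remaining 11040 gated cells are called the other macrophages. In all, 21148 cells of 21427 barcodes passed the quality filter.

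The masses came from CD1 mice, an outbred strain, and were taken 5 days after implantation for droplet RNA sequencing of dissociated cells. The Matrigel library came from implants of only Matrigel, which is a basement membrane gel. The IgG library came from Matrigel with rhBMP2, recombinant human bone morphogenetic protein 2 that induces ectopic bone, in mice given pre-immune control IgG. The antibody library came from the same rhBMP2 implants in mice given an activin A neutralizing antibody (nAct Ab), and activin A belongs to the secreted TGF-beta ligands. Each group was 1 library, the labels give no number of animals behind it, and no IgG is named for the Matrigel group. BMP2 and IgG therefore cannot be told apart between the Matrigel and IgG libraries, and every difference below compares libraries without replicates and without a test. All intervals are at 95% and take in counting error alone.

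Lyve1 encodes a receptor for hyaluronan, Fcna encodes ficolin A, a secreted pattern recognition protein of the lectin complement pathway, and Cd209f is a C-type lectin of the DC-SIGN family. In connective tissue such transcripts mark macrophages that reside around vessels and in the interstitium, take up debris and carry little MHC class II, in contrast to macrophages recently derived from blood monocytes. Lyve1 is also known from lymphatic endothelium, and the transcription factor Maf acts in resident macrophages.

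In the mouse build GRCm38 with GENCODE M21 genes, Fcna lies on chromosome 2 (25624666 to 25628030, minus strand), Lyve1 on chromosome 7 (110850607 to 110863239, minus strand) and Retnla on chromosome 16 (48842551 to 48844461, plus strand). Cd209f (4102787 to 4105835, minus strand) lies on chromosome 8 in a cluster of related lectin genes that runs from Cd209a, which starts at 3743397, to Cd209g, which ends at 4137707. The 250 bases before the RefSeq start sites (GRCm38.p6) of 5 of the genes that the results turn on are shown, since the Cd209 genes were found in the same members. RefSeq and GENCODE start sites differ, and the Cd209g window lies within the GENCODE gene, which starts at 4134098. The Cd209b window was searched too, held none of the motifs and is not shown. All lines read 5′ to 3′ on the gene's strand, and capitals mark matches to the motifs given after them.
Fcna (chr2:25627975-25628224 on the minus strand): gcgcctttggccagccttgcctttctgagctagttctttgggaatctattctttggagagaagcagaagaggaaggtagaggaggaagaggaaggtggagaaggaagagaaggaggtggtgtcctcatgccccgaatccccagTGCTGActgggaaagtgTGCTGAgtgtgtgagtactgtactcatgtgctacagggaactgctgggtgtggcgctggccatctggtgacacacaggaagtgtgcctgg
Cd209f (chr8:4105765-4106014 on the minus strand): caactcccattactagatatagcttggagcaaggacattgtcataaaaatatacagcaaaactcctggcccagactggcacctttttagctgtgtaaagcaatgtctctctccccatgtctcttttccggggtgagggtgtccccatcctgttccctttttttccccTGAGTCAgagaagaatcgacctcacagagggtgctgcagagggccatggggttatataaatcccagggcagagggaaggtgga
Cd209g (chr8:4134486-4134735 on the plus strand): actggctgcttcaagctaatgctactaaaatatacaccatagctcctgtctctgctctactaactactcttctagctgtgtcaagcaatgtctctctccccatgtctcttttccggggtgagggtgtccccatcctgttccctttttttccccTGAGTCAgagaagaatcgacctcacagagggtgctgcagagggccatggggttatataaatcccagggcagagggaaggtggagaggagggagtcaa
Cd209d (chr8:3878500-3878749 on the minus strand): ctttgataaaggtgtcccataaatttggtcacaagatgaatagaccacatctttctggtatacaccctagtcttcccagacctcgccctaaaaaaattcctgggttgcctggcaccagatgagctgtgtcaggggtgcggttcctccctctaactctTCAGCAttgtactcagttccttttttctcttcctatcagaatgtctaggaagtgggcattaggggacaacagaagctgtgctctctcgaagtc
Retnla (chr16:48842359-48842608 on the plus strand): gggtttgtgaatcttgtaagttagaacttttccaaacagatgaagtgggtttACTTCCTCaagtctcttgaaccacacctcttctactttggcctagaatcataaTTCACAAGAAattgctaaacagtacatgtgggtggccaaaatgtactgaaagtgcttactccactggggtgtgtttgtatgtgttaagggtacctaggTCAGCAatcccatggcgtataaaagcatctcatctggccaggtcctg

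The motifs were searched on both strands of each window. TGCTGA, a half-site that MAF proteins bind, occurred 2 times before Fcna, 1 time before Cd209d and 1 time before Retnla, and it stands in 16.1% of 32851 promoter windows of the same length. GAGGAAGT, a PU.1 motif, occurred 1 time before Retnla and in 2.44% of the windows. TTC followed by GAA after any 4 bases, a STAT6 motif, also occurred 1 time before Retnla and in 5.85% of the windows. TGANTCA, the AP-1 motif, occurred 1 time before Cd209f and 1 time before Cd209g, in 6.75% of the windows. The Cd209f and Cd209g windows share an identical run of 154 bases that holds this AP-1 match. Their transcripts share a run of 416 bases as well, which ends 560 or more bases before the 3′ ends of the transcripts that hold it whole, and 29.8% of the words of 50 bases in Cd209f transcripts also occur in Cd209g. The levels of these neighbouring genes may therefore be split or shared by the counting, and a level of Cd209g is uncertain in cells that carry Cd209f. No other pair among Cd209a to Cd209g shared a word of 50 bases.

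The Matrigel library held 985 members, or 16.4% of its macrophage-gated cells (15.5 to 17.3). The IgG library held 129, or 3.96% (3.31 to 4.68). The antibody library held 260, or 8.27% (7.33 to 9.29). The 3 intervals did not overlap, and the share was 12.4 percentage points lower in the IgG than in the Matrigel library (11.3 to 13.6) and 4.32 points higher in the antibody than in the IgG library (3.13 to 5.52). These shares rest on the same transcripts that chose the cells.

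Depth moved with the groups, since members had median depths of 3818, 4831 and 6672.5 UMIs in the Matrigel, IgG and antibody libraries, which is also the order used in every list of 3 values below. After thinning each gated cell to 1000 UMIs, which left out 242, 116 and 82 shallower cells, 7.42% (6.76 to 8.13), 1.27% (0.910 to 1.73) and 2.38% (1.87 to 2.99) of gated cells met the marker rule. The share was 5.83-fold lower in the IgG than in the Matrigel library on this scale, against 4.14-fold on all UMIs. It was 1.88-fold higher in the antibody than in the IgG library, against 2.09-fold. Members made up 10.7%, 2.17% and 4.36% of all quality-filtered cells.

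**Figure D1:**
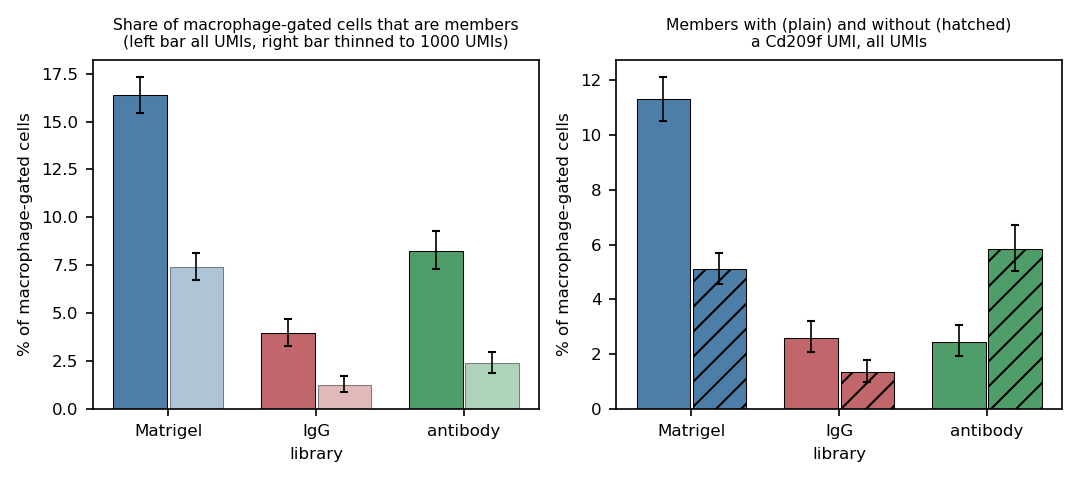
Members as a percentage of macrophage-gated cells in each library (left, from all UMIs and after thinning each cell to 1000 UMIs) and split by a Cd209f UMI (right, from all UMIs). Bars are shares and error bars exact Clopper-Pearson 95% intervals. Members without a Cd209f UMI were 5.09%, 1.35% and 5.82% of gated cells, and those with one 11.3%, 2.61% and 2.45%.

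Cells that should lack the marker transcripts gave a measure of background. Of cells with a Cd3e UMI and no UMI of Cd79a, Csf1r or Adgre1, none of 15, 111 and 423 held 2 of the 3 markers, with exact upper bounds of 21.8%, 3.27% and 0.868%. A count of 0 allows shares of up to 20%, 2.70% and 0.709% where the limit is set at 3 counts. Of the collagen-rich cells without those UMIs, 1 of 1766 in the Matrigel library and none of 1208 and 484 in the others did, although their median depths were 8484.5, 16047 and 17226.5 UMIs. Outside the gate, a further 68, 19 and 18 cells carried at least 2 markers. Of these, 38, 13 and 9 lacked a Csf1r or Adgre1 UMI, and 1, 1 and 7 had a UMI of Cd3e or Cd79a. No barcode was a member in 2 libraries, and 19, 16 and 7 barcodes were shared between pairs of libraries over all cells.

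At the edge of the rule, gated cells with 2 markers held a median of 5 UMIs of the 3 genes in the Matrigel library, 5 with IgG and 6 with the antibody. Cells just outside it, with a single marker gene, held a median of 1 such UMI in each library, and cells with all 3 markers held 13, 16.5 and 19. The single-marker cells numbered 1118, 307 and 521.

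Members held most of the marker transcripts of the gated cells. Lyve1 stood at 507, 451 and 738 UMIs per 1000000 UMIs (CPM, summed over the members of a library), and 71.0%, 53.9% and 65.0% of its gated-cell UMIs lay in members. Fcna stood at 541, 314 and 468 CPM, and members held 83.8%, 53.2% and 73.5% of the Fcna UMIs. Cd209f stood at 1153, 1016 and 406 CPM, with 76.8%, 65.2% and 92.5% in members. Within members, which were chosen by these genes, the level of Cd209f was thus lowest in the antibody library, where that of Lyve1 was highest. Over all gated cells Lyve1 stood at 146, 39.2 and 122 CPM and was highest in the Matrigel library. Cd209f stood at 308, 72.9 and 46.9 CPM and Fcna at 133, 27.6 and 68.1 CPM. Retnla, a secreted resistin-like protein of alternatively activated macrophages that the rule did not use, stood at 10713, 2931 and 3197 CPM in members and 5749, 734 and 709.8 CPM in the other macrophages. It was higher in members by 1.86, 3.99 and 4.50 times, and its UMIs were found in 64.4, 38.0 and 36.9% of members against 46.1, 11.9 and 10.4% of the other macrophages.

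The make-up of the members by marker differed between libraries. In the Matrigel library 341 members carried all 3 markers, 306 Lyve1 and Fcna, 187 Fcna and Cd209f, and 151 Lyve1 and Cd209f. The IgG library held 30, 44, 28 and 27 of these in the same order, and the antibody library 51, 183, 16 and 10. Members without Cd209f were therefore 31.1% (28.2 to 34.1), 34.1% (26.0 to 43.0) and 70.4% (64.4 to 75.9) of all members. They had the highest median depth in the antibody library, 7066 UMIs against 5660 for its members with Cd209f.

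As a share of gated cells, members with a Cd209f UMI were 11.3% (10.5 to 12.1), 2.61% (2.09 to 3.21) and 2.45% (1.94 to 3.05), and members without one were 5.09% (4.55 to 5.68), 1.35% (0.982 to 1.81) and 5.82% (5.03 to 6.70). The IgG and antibody libraries overlapped for the first kind and were 4.32-fold apart for the second. The same held for single genes after thinning: a Cd209f UMI was found in 12.4%, 2.99% and 2.12% of gated cells, a Lyve1 UMI in 10.2%, 2.77% and 7.35%, and an Fcna UMI in 9.76%, 2.64% and 5.06%. Lyve1 and Fcna were thus more frequent in the antibody than in the IgG library, and Cd209f was not. With the marker rule applied after thinning, members with Cd209f were 5.72%, 0.986% and 1.40% of gated cells and members without it 1.70%, 0.286% and 0.980%. On that scale the IgG and antibody intervals overlapped for members with Cd209f (0.671 to 1.40 and 1.02 to 1.89) and did not for members without it (0.131 to 0.543 and 0.662 to 1.40).

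Against the other macrophages of the same library, members carried more of a set of genes of resident macrophages and far less MHC class II. In what follows a gene was called higher or lower when the ratio of summed levels was at least 1.5-fold and its interval left out 1, and for this comparison in all 3 libraries. Of 11721 genes with at least 10 UMIs, 284 were higher (2.42%) and 343 lower (2.93%) in members. The members were chosen from the same cells, so these counts and the values below describe the members and support nothing by themselves.

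Where a gene had to reach 100 CPM in members of each library, Cd209g, another lectin of the cluster, had the highest smallest ratio, 9.95, 26.2 and 38.9 times the level of the other macrophages, with the limit on its counting given above. Hal, histidine ammonia lyase, stood at 550.2, 711 and 323 CPM in members and 97.1, 93.4 and 53.7 CPM in the other macrophages. Ednrb, an endothelin receptor, stood at 685, 765 and 414 CPM against 123, 49.6 and 46.9 CPM. Folr2, a folate receptor used as a marker of resident macrophages, stood at 1277, 1179.6 and 1070.4 CPM against 433, 196 and 254 CPM. In all 3 libraries these levels were several times higher in members, and the ratios were lowest in the Matrigel library for Ednrb and Folr2.

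The complement component C4b stood at 1012, 607 and 277 CPM in members and 356, 84.8 and 48.5 CPM in the other macrophages. The other genes with the highest smallest ratios above 100 CPM were Ltc4s, which makes leukotriene C4, the scavenger receptor Colec12, Calml4, Wfdc17, Cd209d, Ninj1, Serpinb6a, Pmp22, the Fc receptor Fcgrt and the carbonyl reductase Cbr2. Wfdc17 was the most abundant of them at 7454, 6253 and 10434 CPM against 2367, 1101 and 2021 CPM. Across these 15 genes the smallest of the 3 ratios ran from 2.48 for Cbr2 to 9.95 for Cd209g. All of them stood higher in members in each library.

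Genes of antigen presentation were lower. Cd74, the invariant chain, stood at 2834, 2467 and 2314 CPM in members and 12598, 11474 and 9309 CPM in the other macrophages, and was 4.45, 4.65 and 4.02 times lower. H2-Ab1 stood at 1009.5, 826 and 688 CPM against 5652, 5006 and 3496 CPM. Of the 11 measured genes of MHC class II presentation, 8 were lower in members in all 3 libraries and none was higher, with median log2 ratios of -2.19, -2.22 and -2.01 beside 0.04, 0.07 and -0.04 over all genes. Per cell, the median number of UMIs of this list per 10000 UMIs was 7.93, 5.82 and 6.34 in members and 248, 118 and 100 in the other macrophages. The members' upper quartiles reached 72.6, 34.9 and 60.7, so a part of them held more.

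Among genes that reached 100 CPM in the other macrophages of each library, the remaining ones with the lowest ratios were the monocyte and macrophage products Lyz1, Lpl, Mmp12, Cd52, F10, H2-Eb1, H2-Aa and H2-DMb1. Mmp12, macrophage elastase, stood at 8.04, 1.46 and 116 CPM in members and 212, 462 and 598 CPM in the other macrophages, with 1 UMI in all IgG members. Cd52, a small surface glycoprotein of leukocytes, stood at 107, 51.1 and 138 CPM against 838, 1045 and 937 CPM. Members of each library lay below the other macrophages for all 10 genes.

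**Figure D2:**
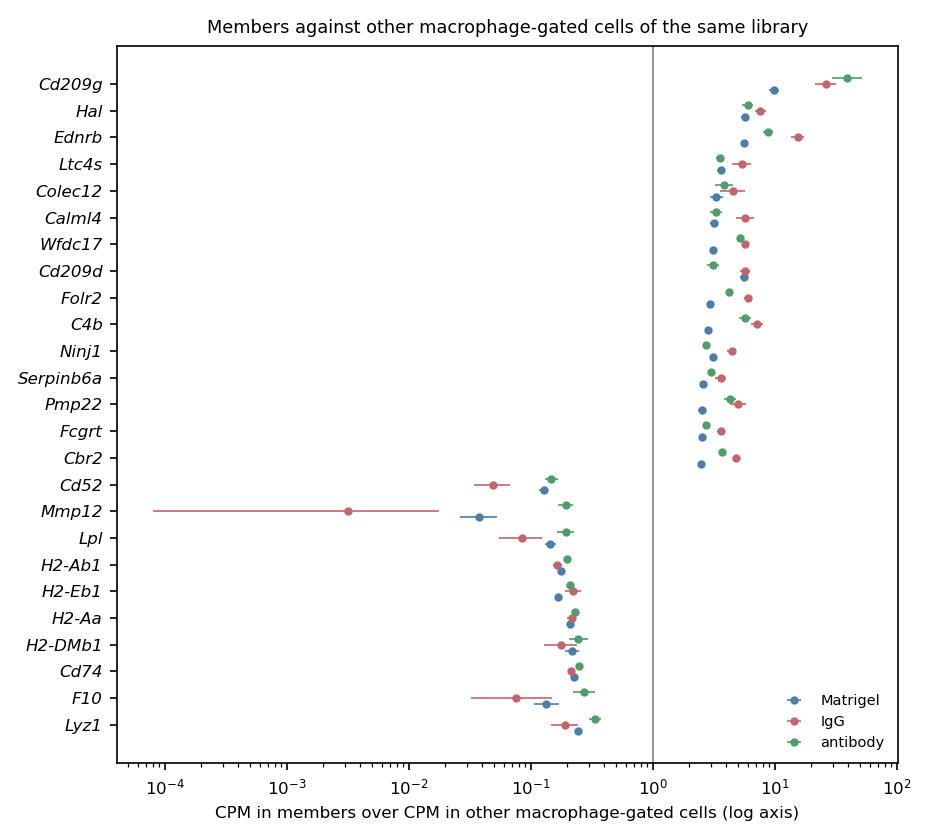
Ratio of the summed level in members to that in the other macrophages of the same library for the 15 genes with the highest smallest ratio and the 10 with the lowest largest ratio (log axis, 1 point per library). Horizontal bars are exact 95% intervals for counting error, and the Cd209g ratios run from 9.95 to 38.9.

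Read by function, 17 of 24 resident macrophage genes were higher in members in all 3 libraries and none was lower in all 3. Selenop, which encodes a selenium carrier protein, stood at 5616, 4752 and 4149 CPM in members and 2827, 1181 and 1215 CPM in the other macrophages. Timd4, a receptor for phosphatidylserine on dying cells, stood at 47.3, 40.9 and 30.8 CPM against 6.94, 4.45 and 3.44 CPM. Vsig4, a complement receptor, stood at 36.7, 19.0 and 39.5 CPM against 1.90, 0.932 and 2.03 CPM. Both receptors were under 100 CPM in all libraries and several times higher in members, Vsig4 by 19.4, 20.4 and 19.5 times. Few members carried Vsig4: its UMIs were found in 5.89, 3.10 and 5.00% of members. In the IgG library Vsig4 had 13 UMIs in cells with 2 marker genes and 0 in cells with all 3. Mrc1, Slco2b1, Ccl24, Pltp, Mgl2, Gpr34 and Txnip of the same list were not called, and the mannose receptor Mrc1 was 1.55, 1.59 and 1.46 times higher, short of 1.5-fold in the antibody library. The direction of Ccl24 differed between libraries, and in the IgG library it was lower in members. In gated cells with 0, 1, 2 and 3 marker genes Ccl24 stood at 205, 198, 258 and 339 CPM in the Matrigel library. The values were 1288, 553, 450 and 443 CPM with IgG and 571, 424, 285 and 549 CPM with the antibody.

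Of 24 measured scavenger and efferocytosis receptors, 10 were higher and 1 was lower. Cd163, the scavenger receptor for haemoglobin bound to haptoglobin, stood at 297, 620.5 and 1045 CPM in members and 77.2, 263 and 358 CPM in the other macrophages. Axl, a receptor that binds Gas6, was the lower one at 12.9, 2.92 and 7.69 CPM against 53.3, 49.3 and 29.2 CPM, with 2 UMIs in all IgG members. Gas6, the bridging ligand, was higher at 1126, 1038 and 583 CPM against 472, 186 and 148 CPM. In these cells the ligand thus stood above and the receptor Axl below the other macrophages.

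Of 16 complement genes 6 were higher and 1 was lower. C1qa, a chain of the C1q recognition molecule, stood at 4959, 5432 and 4709 CPM in members and 2699.7, 2371 and 1964 CPM in the other macrophages. Itgax, an integrin subunit of complement receptor 4, was the lower one at 4.59, 0 and 7.18 CPM against 54.4, 88.0 and 72.9 CPM. Of 15 genes of heme and iron handling, 6 were higher and none was lower, led by Hmox1, heme oxygenase 1, at 656, 734 and 1585 CPM against 311, 357 and 682 CPM. Of 18 interferon-stimulated genes 7 were higher and none was lower, among them Ifi27l2a at 3479.8, 4302 and 2994 CPM against 1669, 1387 and 1333 CPM. All named genes of these 3 lists other than Itgax were higher in members of each library.

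Of 30 transcription factors of macrophages only Maf was higher, at 1617, 1806 and 1332 CPM in members against 977, 932 and 801 CPM in the other macrophages. Bhlhe40, Egr2, Nr4a1 and Runx3 were the 4 lower ones. Of 17 recruited monocyte genes 1 was higher (Plac8) and 6 were lower, among them the chemokine receptor Ccr2 at 283, 319.7 and 153 CPM against 841, 723 and 487 CPM and fibronectin, Fn1, at 735, 831 and 1596 CPM against 2985, 2440.4 and 2855 CPM. Of 21 Arg1 and Trem2 macrophage genes 3 were higher and 6 lower, and of 21 hypoxia and glycolysis genes none was higher and 3 were lower. Of 23 lectins 7 were higher and 5 lower, of 19 chemokines 2 and 3, of 26 cytokines and growth factors 3 and 5, of 19 immediate early and heat shock genes none and 6, and of 28 genes of TGF-beta, activin and BMP signalling 2 and 5. None of 27 proliferation genes was called either way.

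Some levels were graded with the number of marker genes. In the Matrigel library Folr2 stood at 299, 867, 1155 and 1480.5 CPM in gated cells with 0, 1, 2 and 3 marker genes, in the IgG library at 161, 457, 1054 and 1555 CPM and in the antibody library at 180.3, 511, 923 and 1870.1 CPM. H2-Ab1 went the other way, at 6699, 2263, 1093 and 871 CPM, 5349.9, 2398, 908 and 582 CPM and 4058, 1544, 681 and 726 CPM. The values for cells with 1 marker gene, which the rule left out, lay between those of cells without any and those of members for both genes in each library. In the antibody library C4b went from 162.8 CPM at 2 marker genes to 897 CPM at 3, and Timd4 from 13.4 to 124.9 CPM. Other genes had no such order: Stab1, a scavenger receptor, stood at 583, 1342, 1308 and 1179.6 CPM in the Matrigel library, and Pf4, platelet factor 4, at 1486, 2631, 3661 and 2189 CPM in the antibody library.

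**Figure D3:**
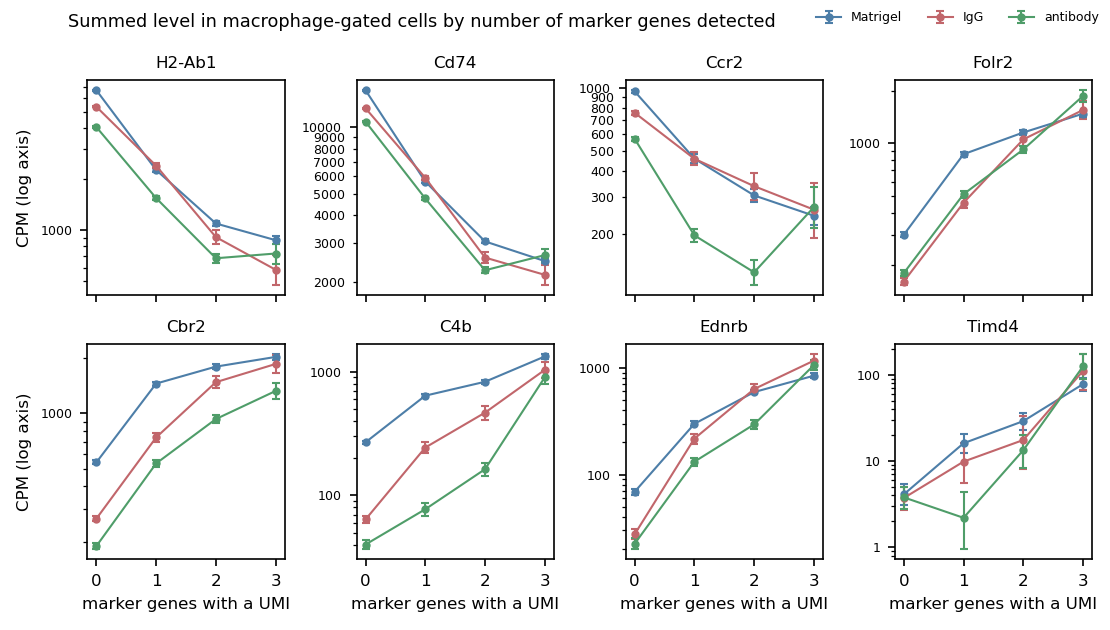
Summed level (CPM, log axis) of 8 genes in gated cells with 0, 1, 2 or 3 of the marker genes Lyve1, Fcna and Cd209f, 1 line per library, with exact Poisson 95% intervals. H2-Ab1 and Cd74 are lower at 2 than at 0 marker genes, and Folr2, Cbr2, C4b and Ednrb are higher with each added marker gene in each library.

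Markers of most other cell types were sparse in members. Members with 3 or more UMIs of 1 marker list of endothelial cells (without Pdpn, which macrophages also transcribe), neutrophils, basophils and mast cells, T and NK cells or erythroid cells numbered 8 of 985, 3 of 129 and 10 of 260. Among the other macrophages the shares were 1.05%, 9.07% and 10.6%. The lymphatic genes Flt4, Mmrn1 and Reln, and Ly6g, Ngp and Cd5, were at 0 UMIs in members of all 3 libraries. They were named after their values were seen. Of 13 endothelial and lymphatic genes, 4 were at 0 in members of each library. Of 9 neutrophil genes 3, 3 and 5 were at 0, and of 13 T and NK genes 5, 8 and 2. The remaining genes of these lists held UMIs in members. In the IgG library 1 member held 125 of the 129 endothelial UMIs of all members, and in the Matrigel and antibody libraries 4 and 1 members held 2568 of 2592 and 3838 of 3899 erythroid UMIs. Mesenchymal genes summed to 349, 534 and 108 CPM in members and 391, 471 and 124 CPM in the other macrophages, so both carried a like level of transcripts of the collagen-rich cells, lowest in the antibody library. B cell genes summed to 206, 248 and 113 CPM in members against 150, 79.4 and 49.7 CPM in the other macrophages. Of 4 measured B cell genes 1 was higher in members. Dendritic cell genes summed to 56.5, 146 and 46.7 CPM in members against 71.8, 252 and 186 CPM.

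The members were not uniform, and their Cd209f transcripts marked a difference that recurred in each library. Comparing members with and without a Cd209f UMI, 17 of 5753 genes were higher (0.295%) and 24 lower (0.417%) in those with Cd209f in all 3 libraries. Since Cd209f is a gene of the rule, this is a description and was not tested. Under the rule every member without Cd209f carried both Lyve1 and Fcna. Of the members with Cd209f, 187, 28 and 16 had no Lyve1 UMI and 151, 27 and 10 no Fcna UMI. Both kinds of member thus differed in these 2 markers too, and the split cannot tell them from Cd209f. Members with Cd209f carried its neighbours Cd209a, Cd209b, Cd209d, Cd209e and Cd209g. Cd209d stood at 490.2, 1285 and 852 CPM with and 40.2, 44.2 and 26.4 CPM without a Cd209f UMI, Cd209b at 224, 279.9 and 272 CPM with and 12.9, 0 and 4.06 CPM without, and Cd209g at 539, 553 and 578 CPM with and 13.7, 8.03 and 4.06 CPM without. The transcripts of 5 genes of the chromosome 8 cluster were thus found in the same members, and Cd209a, Cd209b, Cd209d and Cd209e share no word of 50 bases with Cd209f.

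The other genes higher with Cd209f were Anpep, C4b, Chp2, Fh1, Gbp2b, Gm4951, Hist1h2bc, Ifit2, Ifit3, Isg15, Pros1 and Timd4, named after their values were seen. C4b stood at 1269, 808 and 873 CPM with and 421, 257 and 86.0 CPM without a Cd209f UMI. Timd4 stood at 58.9, 57.4 and 86.5 CPM with and 20.5, 12 and 12.9 CPM without. Ifit3, an interferon-induced gene, stood at 43.1, 122 and 97.0 CPM with and 27.3, 32.1 and 11.5 CPM without. Each was higher in members with Cd209f by more than counting error in each library.

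The genes lower with Cd209f were led by Arg1, the arginase of alternatively activated macrophages, at 10.2, 89.5 and 390.2 CPM with and 98.7, 702 and 2591 CPM without a Cd209f UMI. Fibronectin, Fn1, stood at 444, 537 and 257 CPM with and 1405, 1345 and 2026 CPM without, and the calcium-binding S100a6 at 558, 636 and 483 CPM with and 898, 1598 and 4400.3 CPM without. The glucose transporter Slc2a1 stood at 21.4, 25.2 and 16.9 CPM with and 41.0, 84.3 and 82.6 CPM without, and Gapdh at 1024, 1083 and 1189 CPM with and 1594, 1702 and 2856 CPM without. The rest were Adgre5, Basp1, Capg, Cd93, Clec4d, Ecm1, Emilin1, Furin, Gngt2, Itgb5, Lair1, Lrp1, S100a4, Scarb1, Slc16a3, Tagln2, Tppp3, Vcan and Vim. 

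Retnla differed from these in that its split depended on the library. It stood at 10289.5, 4346 and 9446 CPM in members with and 11690.3, 458 and 1191 CPM in members without a Cd209f UMI, a ratio of 0.880-fold (0.863 to 0.897) in the Matrigel, 9.50-fold (7.86 to 11.6) in the IgG, and 7.93-fold (7.51 to 8.39) in the antibody library. In the Matrigel library both kinds of member thus stood within 1.5-fold of each other, and in both BMP2 libraries those with Cd209f carried several times more. In the IgG library 10 cells held 61.3% of the Retnla UMIs of all members.

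**Figure D4:**
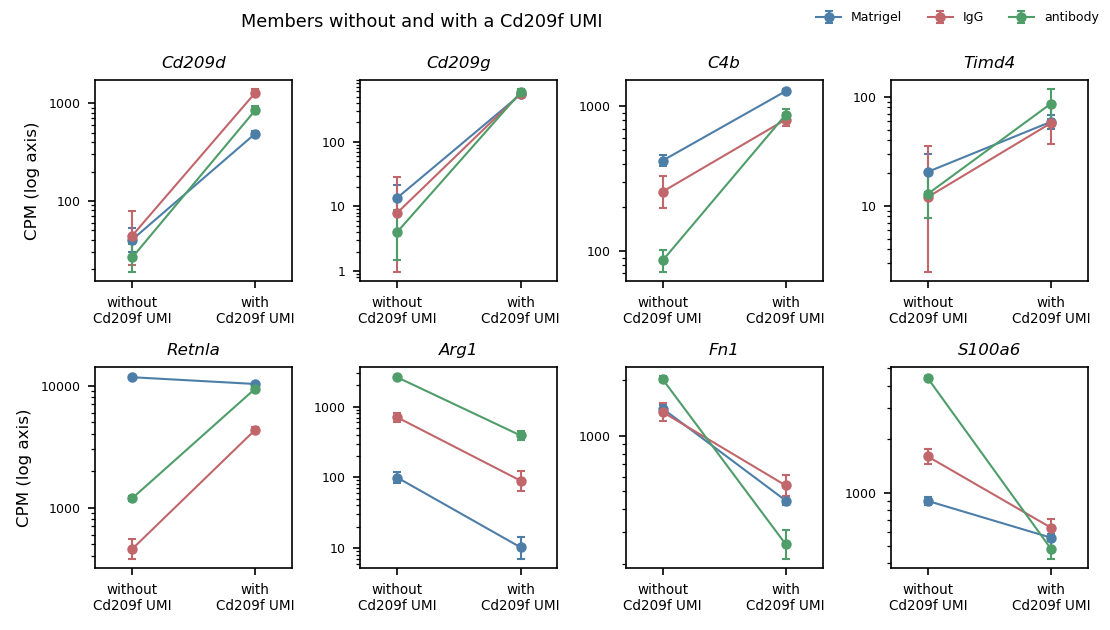
Summed level (CPM, log axis) of 8 genes in members without and with a Cd209f UMI, 1 line per library, with exact Poisson 95% intervals. Cd209d, Cd209g, C4b and Timd4 are higher and Arg1, Fn1 and S100a6 lower with Cd209f in each library, and Retnla is split in the IgG and antibody libraries.

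Between the IgG and Matrigel libraries, members carried less Retnla and fewer transcripts of proliferation in the BMP2 implant, and more of the chemokine Ccl8, of interferon-stimulated genes and of Ly6a. Of 10786 genes measured in members, 479 were higher (4.44%) and 490 lower (4.54%) in the IgG library. The other macrophages had 1451 higher and 1291 lower of 12978. These counts rest on 129 IgG members, so 10 cells can hold most of the UMIs of a gene, and the share they held is given beside the genes named below where it was over 50%.

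Ccl8, a chemokine that attracts monocytes and eosinophils, stood at 4836, 14822 and 6537 CPM in members and was 3.06-fold (2.99 to 3.14) higher in the IgG than in the Matrigel library. In the other macrophages it stood at 2224, 4579 and 4587 CPM. Ly6a, a surface antigen induced by interferon, stood at 37.4, 439 and 183 CPM and was 11.7-fold (9.67 to 14.3) higher, with 51.8% of the IgG UMIs in 10 cells. The interferon-induced GTPase Iigp1 stood at 39.7, 248 and 55.4 CPM (65.3% in 10 cells) and Gbp2, a guanylate-binding protein, at 46.2, 181 and 268 CPM (53.2% in 10 cells). All 4 genes were also higher in the other macrophages of the IgG library.

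Arg1 stood at 37.0, 312 and 2056 CPM in members, 8.45-fold (6.86 to 10.4) higher in the IgG library, where 95.3% of the Arg1 UMIs lay in 10 cells. In the other macrophages Arg1 stood at 60.0, 1199 and 1653 CPM, 20-fold (18.7 to 21.3) higher. The remaining high genes were Cd209e (83.3% in 10 cells), AW112010 (57.3%), Tppp3, Il6st (79.5%), Aqp1, Ctla2a and Igfbp7. The last 3 are transcribed by endothelium, and 10 cells held all of their UMIs in IgG members. Without members holding markers of another cell type, an alternative chosen after the data were seen, Igfbp7 stood at 10.8, 10.8 and 4.86 CPM, Aqp1 at 1.87, 3.07 and 11.4 CPM and Il6st at 53.3, 70.7 and 50.8 CPM. The IgG values of these genes therefore came to a large part from 1 to 3 cells, whereas Ly6a stood at 35.3, 435 and 186 CPM without those cells.

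Of 18 interferon-stimulated genes, 9 were higher in IgG members and none was lower, with a median log2 ratio of 0.63 beside 0.03 over all genes. Isg15, a ubiquitin-like protein, stood at 88.6, 199 and 110.2 CPM and was 2.24-fold (1.83 to 2.73) higher. In the other macrophages 13 of 18 were higher, with a median of 1.0. Over all members the antibody value of Isg15 lay nearer to that of the Matrigel than of the IgG members, but in cells with all 3 markers Isg15 stood at 86.4, 221 and 269.5 CPM.

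Retnla was 3.65-fold (3.49 to 3.82) lower in IgG than in Matrigel members and 7.83-fold (7.68 to 8.0) lower in the other macrophages. Within cells with all 3 markers, of which the IgG library held 30, it was 1.98-fold (1.87 to 2.10) lower. Within members with a Cd209f UMI it was 2.37-fold (2.26 to 2.48) lower, and within members without one 25.5-fold (21.3 to 31.0) lower. H2-Eb1, an MHC class II chain, stood at 748, 237 and 590.1 CPM in members and 4439.9, 1058 and 2825 CPM in the other macrophages, with 71.6% of the IgG member UMIs in 10 cells. It was the one gene of that list called lower, while H2-Ab1 and Cd74 were not. The animals were outbred, and animal and treatment cannot be told apart for this gene.

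Of the proliferation genes 26 of 27 were lower in IgG members, with a median log2 ratio of -1.79. Within cells with all 3 markers 8 of 27 were lower. In the other macrophages 18 of 27 were lower, with a median of -0.69. Mki67, a nuclear protein of cycling cells, stood at 103, 14.6 and 46.7 CPM in members and 82.1, 48.0 and 38.9 CPM in the other macrophages, and Top2a, topoisomerase 2 alpha, at 118, 14.6 and 35.9 CPM against 91.7, 56.8 and 37.1 CPM. The sum over the list was 1235, 372 and 621 CPM in members and 1016, 688 and 632 CPM in the other macrophages. Members thus stood above the other macrophages in the Matrigel library and below them in the IgG library, where all members held 10 UMIs of Mki67 and 10 of Top2a. In the antibody library 10 cells held 86.8% of the Mki67 UMIs of members.

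The remaining low genes were Lyz1, Fabp4, Rnaset2a, the immediate early gene Fosb, AC149090.1, Csf2ra, and the haemoglobin genes Hba-a1 and Hbb-bs. Fabp4, a fatty acid carrier, stood at 181, 24.8 and 0.513 CPM with 98.1% of the Matrigel UMIs in 10 cells. Lyz1, a lysozyme, stood at 389, 90.5 and 161 CPM (93.5% of the IgG UMIs in 10 cells) and Rnaset2a at 193, 81.8 and 153 CPM. The haemoglobin UMIs lay in 10 or fewer cells (99.3% of Hba-a1 in the Matrigel library), and without members holding erythroid or other foreign markers Hbb-bs stood at 2.11, 24.6 and 21.6 CPM.

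Over all members, those of the antibody library carried more Arg1, immediate early and glycolysis transcripts than those of the IgG library, and more of 9 of 16 chemokines. They carried fewer transcripts of Ccl8, Cd209 lectins and interferon-stimulated genes. Of 9193 genes measured in members 441 were higher (4.8%) and 949 lower (10.3%). The direction of these counts depended on the scaling: with median-of-ratios scaling, which moves every log2 ratio of this comparison by the same 0.144 upward, 682 were higher and 618 lower. The share of higher calls was 31.7% on summed UMIs and 52.5% with that scaling. The median log2 ratio of all genes was -0.16 on summed UMIs, and list medians below are to be read against it. The other macrophages had 573 higher and 1242 lower of 12818. This comparison and the one before share the IgG members. Members without Cd209f were 34.1% of IgG and 70.4% of antibody members, so values within each kind of member, and within the 30 IgG and 51 antibody cells with all 3 markers, are given where they differ.

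Arg1 was 6.58-fold (5.73 to 7.59) higher in antibody than in IgG members and 1.38-fold (1.35 to 1.41) higher in the other macrophages. The ratio of both ratios was 4.77 (4.15 to 5.48). After thinning an Arg1 UMI was found in 2.06, 8.53 and 42.7% of members and 4.38, 36.5 and 47.8% of the other macrophages. Within members with a Cd209f UMI Arg1 was 4.36-fold (3.07 to 6.33) higher and within those without one 3.69-fold (3.17 to 4.32). Within cells with all 3 markers Arg1 stood at 12.3, 99.0 and 138 CPM, and its antibody over IgG ratio of 1.39-fold (0.777 to 2.61) was not called. Antibody members without Cd209f stood above the other macrophages of that library for this gene, and those with Cd209f below them.

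Of 16 measured chemokines 9 were higher and 1 was lower in antibody members, with a median log2 ratio of 1.0. The list as a whole summed to 13442, 25012 and 22784 CPM in members, so its summed level was not higher with the antibody. Ccl2, the main ligand of Ccr2, stood at 285, 283 and 1267 CPM in members, 4.47-fold (3.86 to 5.20) higher, and at 215, 377 and 609 CPM in the other macrophages. Within cells with all 3 markers 4 of 12 chemokines were higher and 1 lower, and Ccl2 was 1.41-fold (1.02 to 2.0) higher, short of 1.5-fold. Within members without Cd209f Ccl2 was 6.39-fold (4.94 to 8.4) higher, and within members with it 1.37-fold (1.10 to 1.72). Cxcl2, a neutrophil attractant, stood at 85.7, 13.1 and 194 CPM, with all IgG and 63.5% of the antibody UMIs in 10 cells. Ccl8 was the lower one, at 2.27-fold (2.21 to 2.33) lower, while in the other macrophages it differed by 1.0-fold (0.991 to 1.01).

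The other genes with the highest ratios were Mmp12, Clec4d, Hopx, Cd36, S100a6, Adam8 and the haemoglobin genes Hba-a1, Hbb-bs and Hbb-bt. S100a6 stood at 661, 985 and 3448 CPM, 3.5-fold (3.23 to 3.79) higher over all members, 2.75-fold (2.49 to 3.06) within members without Cd209f and 0.760-fold (0.635 to 0.909) within members with it. The scavenger receptor Cd36 stood at 37.0, 49.6 and 247 CPM, 4.26-fold (2.66 to 7.25) and 1.61-fold (0.841 to 3.18) within these kinds of member. Hopx stood at 23.0, 23.4 and 137 CPM, with 8.81-fold (3.73 to 27.4) and 0.501-fold (0.152 to 1.48). In the IgG library 10 cells held all Hopx UMIs, 83.9% of the Adam8, 74.2% of the Clec4d and 91.2% of the Cd36 UMIs, and in the antibody library 10 cells held all Mmp12 UMIs. Among members with Cd209f the ratio was thus below 1 for S100a6, and its interval held 1 for Cd36 and Hopx.

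Immediate early and heat shock genes were higher in antibody members: 13 of 19 were higher and none was lower, with a median log2 ratio of 0.82. Dusp1, a phosphatase of stress signalling, stood at 193, 109 and 358 CPM, 3.27-fold (2.57 to 4.2) higher, and Egr1, an immediate early transcription factor, at 68.9, 16.1 and 76.4 CPM. In the IgG library 10 cells held all Egr1 UMIs of members. These genes are also known to respond to tissue dissociation. In the other macrophages 12 of 20 were higher, with a median of 0.62. Within members with Cd209f 15 of 19 genes were higher, within members without it 11 of 19, and within cells with all 3 markers 14 of 17, where Dusp1 was 2.00-fold (1.32 to 3.14) higher.

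Of 21 hypoxia and glycolysis genes 11 were higher and 1 was lower, with a median log2 ratio of 0.59, against 1 higher and 1 lower and a median of -0.04 in the other macrophages. Pgk1, phosphoglycerate kinase, stood at 395, 406 and 869 CPM in members and 556, 935 and 1050.0 CPM in the other macrophages. Within members with Cd209f 5 of 18 were higher, within members without it 8 of 20, and within cells with all 3 markers 2 of 16. Of 20 Arg1 and Trem2 macrophage genes 10 were higher and 2 lower in antibody members, among them Trem2, a lipid receptor, at 128, 134 and 299.9 CPM (63.0% of the IgG UMIs in 10 cells). The other macrophages had 2 higher and 1 lower of 21, and cells with all 3 markers 4 and 1 of 12. Of 15 recruited monocyte genes 7 were higher and 2 lower, against 2 and 1 of 7 in cells with all 3 markers, and Lyz2 stood at 9880.3, 8807 and 14048 CPM.

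Transcripts that were lower with the antibody included the Cd209 lectins. Cd209d stood at 354, 834 and 227 CPM, 3.67-fold (3.24 to 4.16) lower over all members and 1.51-fold (1.32 to 1.72) lower within members with a Cd209f UMI. Cd209a stood at 45.5, 124 and 31.8 CPM, 3.90-fold (2.78 to 5.51) and 1.77-fold (1.23 to 2.56) lower. In the IgG library 10 cells held 60.2% of the Cd209d and 70.6% of the Cd209a UMIs. The smaller share of members with Cd209f thus went with the lower totals. Within those members Cd209b and Cd209g differed by 0.972-fold (0.753 to 1.26) and 1.05-fold (0.876 to 1.25), so the antibody and IgG values given above lay within counting error, and smaller differences than over all members were left for Cd209d and Cd209a. C4b stood at 808 CPM in IgG and 873 CPM in antibody members with Cd209f, although over all members it was 2.19-fold (1.92 to 2.49) lower. Gas6 was 1.78-fold (1.62 to 2.0) lower over all members, Ednrb 1.85-fold (1.65 to 2.07) and Igf1, insulin-like growth factor 1, 1.99-fold (1.69 to 2.34). Within members with Cd209f none of these 3 was called: the antibody over IgG ratio was 0.785-fold (0.688 to 0.895) for Gas6, 1.01-fold (0.875 to 1.17) for Ednrb and 0.849-fold (0.685 to 1.05) for Igf1. Within members without it all 3 were lower, Ednrb by 2.42-fold (2.01 to 2.89).

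The remaining low genes were Iigp1, Lilr4b, Clec2d, Cd209e, Lbp, Gja1, Il6st, Igfbp7, Aqp1 and Ctla2a, the last 4 with IgG values that rested on few cells as given above. Lilr4b, an inhibitory receptor, stood at 89.1, 102 and 23.1 CPM and Clec2d at 254, 273 and 82.5 CPM. Lbp, the lipopolysaccharide binding protein, stood at 90.9, 108 and 31.3 CPM and Gja1, connexin 43, at 114, 245 and 85.6 CPM. Of the interferon-stimulated genes none was higher and 7 of 18 were lower, with a median log2 ratio of -0.61. The other macrophages had 11 of 18 lower and 1 higher. Within members with Cd209f, 1 of 17 was lower and 1 higher, and within members without it 6 of 18 were lower. Cells with all 3 markers had 3 higher and 1 lower of 17, so the direction depended on the members counted.

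Genes of TGF-beta, activin and BMP signalling summed to 1532, 1743 and 1583 CPM in members. Of 29 measured genes 7 were higher and none was lower in IgG than in Matrigel members, and of 26 genes 3 were higher and 7 lower in antibody than in IgG members. Pmepa1, a target and inhibitor of TGF-beta signalling, stood at 24.6, 99.3 and 39.0 CPM in members, 4.04-fold (2.94 to 5.53) higher in the IgG than in the Matrigel and 2.55-fold (1.81 to 3.58) lower in the antibody than in the IgG library. Within cells with all 3 markers neither difference was called: Pmepa1 stood at 28.2, 34.9 and 26.3 CPM, with ratios of 1.24-fold (0.433 to 2.91) and 0.752-fold (0.229 to 2.63). In the other macrophages it stood at 24.0, 165 and 61.3 CPM. After thinning, a Pmepa1 UMI was found in 1.85, 5.43 and 5.38% of members, with IgG and antibody intervals of 2.21 to 10.9 and 2.97 to 8.87, while 79.4% of the IgG Pmepa1 UMIs lay in 10 cells. These shares rest on 7 of 129 IgG and 14 of 260 antibody members. Their intervals are too wide to tell whether the share of cells followed the lower CPM of the antibody library. Tgfbr2, a TGF-beta receptor, stood at 270.3, 248 and 156 CPM in members and 169, 98.4 and 93.5 CPM in the other macrophages. Eng, Id1 and Id3, which were called higher in IgG members, are also transcribed by endothelium. Without members holding foreign markers 4 genes were higher and 2 lower of 28 in the first comparison and 4 and 3 of 24 in the second, and Eng stood at 49.6, 52.2 and 66.5 CPM while Pmepa1 stood at 22.7, 104 and 40.0 CPM. Cells with all 3 markers had none higher and 1 lower of 23 in the first comparison. The list's count between the IgG and Matrigel libraries thus rested in part on 1 to 3 cells and on the members counted.

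**Figure D5:**
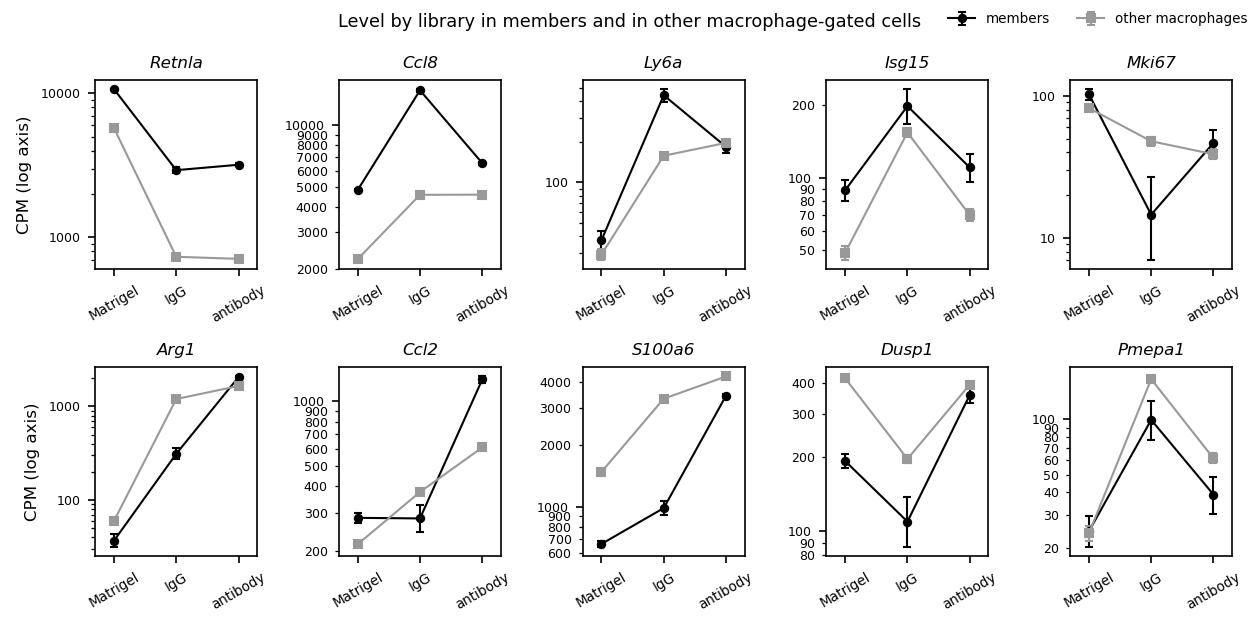
Summed level (CPM, log axis) of 10 genes in members (black circles) and in the other macrophages (grey squares) of the 3 libraries, with exact Poisson 95% intervals. Members reach 2056 CPM of Arg1 in the antibody library against 312 CPM in the IgG library, and Ccl8 is highest in IgG members at 14822 CPM.

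Among 24 resident macrophage genes 4 were higher and 3 lower in IgG than in Matrigel members, and 3 were higher and 18 lower in the other macrophages. With the antibody 4 were higher and 7 lower in members, and 5 higher and 2 lower in the other macrophages. These counts cannot be compared between both kinds of cell, since members were chosen in each library by transcripts of resident macrophages. Single-marker cells were 1118 of 5025 other macrophages in the Matrigel and 307 of 3132 in the IgG library. IgG members also held 684986 UMIs against 13944078 in the other macrophages, so fewer of their genes could be called. Cd163 was the resident gene that was higher in both steps, at 297, 620.5 and 1045 CPM in members, 2.09-fold (1.87 to 2.33) and then 1.68-fold (1.52 to 1.87). Its level went up in the same order outside the members, at 53.8, 255 and 311 CPM in gated cells with 0 marker genes. Folr2 stood at 1277, 1179.6 and 1070.4 CPM and Selenop at 5616, 4752 and 4149 CPM, both short of 1.5-fold in either step over all members. Within members with Cd209f Selenop was 1.56-fold (1.48 to 1.64) higher with the antibody and within members without it 1.45-fold (1.36 to 1.55) lower, short of 1.5-fold. Of 30 transcription factors 1 was higher and 2 were lower in IgG members, and 7 were higher and 3 lower of 29 in antibody members. Of 11 MHC class II genes 1 was lower in the first step, and in the second 3 were higher.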

How the data were processed

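Dissociated cells of 3 libraries were profiled with 10x 3′ v3 chemistry, per the labels' protocols. The authors deposited matrices of UMI counts per gene and barcode, made with Cell Ranger 3.0.2 on mm10 per the submitters' processing notes. For the annotation release and the cell-calling settings the labels name nothing. The libraries held 9249, 6065 and 6113 barcodes and 44252421, 46317250 and 38163880 UMIs, and 26, 107 and 146 barcodes failed the quality filter.

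The members and gene lists were chosen with earlier results of these data known. Levels are UMIs summed over the cells of a class per 1000000 summed UMIs (CPM), with exact Poisson intervals for levels, exact Clopper-Pearson intervals for shares and exact conditional binomial intervals for ratios (95%, counting error only: cells of a library are not replicates, and reads of a few deep cells weigh more). A gene was measured with 10 or more UMIs in either class compared. Between libraries, genes at 100 CPM or more were ranked by the interval bound nearer to 1 and the 12 highest and 12 lowest named, and against the other macrophages the 15 with the highest smallest ratio and the 10 with the lowest largest ratio. Genes that free RNA could set (under 10% of their level in the T-cell-gated or collagen-rich cells), ribosomal and mitochondrial genes were not named. List members were named by level or, where a sentence on the list needed them, after their values were seen.

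Scrublet, run in scanpy 1.11.5, marked 2, 3 and 4 cells as doublets, under 0.5% of each library, so doublets were kept. An alternative removed the 681, 284 and 285 cells of highest score, 0.8% per 1000 cells. The other alternatives changed the marker rule, thresholds, scaling or weights. Python 3.11.15, numpy 2.4.6, scipy 1.17.1 and pandas 2.3.3 were used, and the ratio procedure was tested on simulated Poisson counts. Those counts were not clumped by cell, so the test cannot tell how the intervals fare where few cells hold most UMIs of a gene.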

Additional observations from a re-analysis of the deposited data

Results flagged for a closer look

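Between the IgG and Matrigel libraries, 4 genes differed past 1.5-fold in opposite directions in members and in the other macrophages, and 1 of them did so between the antibody and IgG libraries as well. With 1 library per group these differences were not tested. Saa3, which encodes an acute-phase serum amyloid protein, stood at 55.8, 117 and 81.0 CPM in members and 92.5, 24.2 and 82.5 CPM in the other macrophages of the Matrigel, IgG and antibody libraries. Its IgG over Matrigel ratio in members was 7.98 times that in the other macrophages (6.04 to 10.5). Ms4a8a, a membrane protein of the MS4A family, stood at 85, 155 and 77.4 CPM in members and 45.0, 19.5 and 39.9 CPM in the other macrophages. The ratio in members was 4.2 times that in the other macrophages for IgG over Matrigel (3.25 to 5.43) and 0.245 times for antibody over IgG (0.184 to 0.326). It was thus highest in members and lowest in the other macrophages of the IgG library.

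The haemoglobin genes Hbb-bs and Hba-a1 had ratios in members that were 0.00169 and 0.000905 times those in the other macrophages for IgG over Matrigel. Hbb-bs stood at 319, 26.3 and 1204 CPM in members and 7.06, 343 and 816 CPM in the other macrophages. In members these UMIs lay mostly in 4 cells of the Matrigel and 1 of the antibody library. The other macrophages also held their erythroid UMIs in few cells. In the IgG library 7 of 3132 held 7707 of 8129, and in the antibody library 26 of 2883 held 20577 of 21174.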

How the results depend on the processing

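No paired analysis was possible because each group was 1 library, and no replicate could be left out. The difference in the share of members, -12.4 points between the IgG and Matrigel libraries, was -4.75 with all 3 markers required, -6.15 after thinning, -8.51 over all quality-filtered cells, -8.69 for members with and -3.74 for members without a Cd209f UMI. Between the antibody and IgG libraries the 4.32 points became 0.70, 1.11, 2.19 and, for members with a Cd209f UMI, -0.16. That change of sign lay within counting error, at 2.45% (1.94 to 3.05) against 2.61% (2.09 to 3.21). With the marker rule applied after thinning, members with Cd209f were 1.40% in the antibody and 0.986% in the IgG library, also with overlapping intervals. The splits by a Cd209f UMI, and leaving out members with markers of other cell types, were chosen after the data were seen. The 969 genes called between the IgG and Matrigel libraries became 578 at 2-fold, 3326 with cells weighted equally and 482 with all 3 markers. The 1390 between the antibody and IgG libraries became 724, 3108 and 393, and 659 in members with Cd209f. The 627 of members over the other macrophages became 317, 1200 and 415, and 299 in members without Cd209f. Weighting cells equally uses no interval, so its counts hold more genes of few UMIs.

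Of 123 values of named genes, 111 kept their direction and size under median-of-ratios scaling and 12 moved, 104 and 19 without the highest doublet scores, and 75 and 48 with cells weighted equally, with no reversal in these 3 settings. The marker settings moved more: with all 3 markers 33 kept, 85 moved and 5 reversed, in members with Cd209f 42, 75 and 6, and in members without it 44, 71 and 8. Without members holding markers of other cell types it was 99, 18 and 6. With all 3 markers, 5 log2 ratios reversed: Fabp4 (IgG over Matrigel) at 0.93, and for antibody over IgG Hbb-bt at -0.83, Clec4d at -0.31, Hopx at -3.0 and S100a6 at -0.28. In members with Cd209f, Igfbp7 stood at -1.01 and Hbb-bs at 1.34 for IgG over Matrigel, and Hbb-bs at -0.12, Hbb-bt at -0.12, Hopx at -1.0 and S100a6 at -0.40 for antibody over IgG. In members without Cd209f, Cd209e stood at -0.40 and Fabp4 at 2.86 for IgG over Matrigel and Cd209e at 1.68 for antibody over IgG. Against the other macrophages these members stood at -1.48 and -0.76 for Cd209g (Matrigel, IgG) and -0.65, -1.72 and -1.45 for Cd209d (Matrigel, IgG, antibody). Without members holding markers of other cell types, Igfbp7 stood at -0.00058, Hba-a1 at 1.02 and Hbb-bs at 3.55 for IgG over Matrigel, and Hbb-bs at -0.19, Hbb-bt at -2.09 and Aqp1 at 1.88 for antibody over IgG. The 129 IgG members hold 684986 UMIs, the smallest sum of the 3 libraries, and limit every ratio that uses them.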

Other observations

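Members differed from the other macrophages in their cytokine and chemokine transcripts as well. Pf4, platelet factor 4, stood at 2134, 1962 and 3431 CPM in members and 1284, 912 and 1742 CPM in the other macrophages, and Ccl6 at 3622, 4749 and 6572 CPM against 2357, 1016 and 2011 CPM. Il1b, an inflammatory cytokine, stood at 5.51, 11.7 and 19.0 CPM against 66.0, 206 and 227 CPM, and Vegfa, an angiogenic factor, at 9.65, 13.1 and 18.5 CPM against 24.4, 57.7 and 52.4 CPM. Members thus lay above the other macrophages for both chemokines and below them for Il1b and Vegfa in each library. Bmp2, the bone morphogenetic protein of which a human form was implanted, was among the genes called higher, at 15.4, 13.1 and 17.9 CPM against 5.04, 2.01 and 3.38 CPM, and counts here are of the mouse transcript. Its level in IgG members rested on 6 UMIs in members with and 3 in members without a Cd209f UMI. These genes were named after their values were seen, and the members were chosen from the same cells.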
